A study of Mus musculus with 6 samples.

Results

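The DNA replication machinery was examined as 42 genes out of 19680 in the deposited table, chosen by gene symbol for their role in the pathway. They encode the origin licensing factors, the MCM helicase and its activators, the replicative polymerases, the clamp and its loader, the factors that process single strands and join fragments, and enzymes that supply nucleotides. All 42 passed the filter on low values (a mean of at least 1 normalized count). The study sequenced RNA of germinal center (GC) B cells, which multiply and mutate their antibody genes in response to an antigen, sorted from mouse spleen as B220+ CD38- FAS+ cells. Its question was what happens to the transcriptome of these cells when Senp1, a protease that takes the small modifier SUMO off proteins, is deleted.

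The 3 cKO libraries came from Senp1flox/flox Cγ1-Cre mice, in which Cre is driven from the Cγ1 antibody locus and so acts in B cells that respond to antigen. The 3 WT libraries came from Senp1flox/flox mice that carry no Cre, so the WT alleles are floxed as well, and no library with Cre alone is part of the comparison. All mice were C57BL/6, 6 to 8 weeks old, and received 100 µg of NP-CGG, a hapten-carrier protein antigen, into the abdominal cavity 14 days before the spleen was taken. Whether a separate mouse stands behind each library is not stated, so a p-value here covers library-to-library spread, which may be technical. The labels call the mice paired without tying a replicate number to a pair.

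Replication starts when the origin recognition complex, CDC6 and CDT1 load rings of MCM proteins onto DNA. CDC45 and the GINS complex turn each ring into an active helicase, primase and polymerase α start each strand, and polymerases δ and ε extend it while held on the DNA by the PCNA clamp. GC B cells are among the fastest dividing cells of the adult animal, and many of these genes are transcribed under E2F control as cells enter S phase. In such bulk libraries, fewer cells in S phase and less RNA per cell cannot be told apart.

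The libraries held 9657005, 3019152 and 3082897 gene-assigned reads in cKO and 10339054, 5160902 and 6528052 in WT, in order of replicate number. Senp1 had 373, 425 and 398 normalized counts in cKO and 915, 868 and 891 in WT, so every cKO library lay below every WT library. The gene lies at chr15:98038744-98093744 (GRCm38), and its log2 fold change was -1.16 ± 0.12 (SE; limma adjusted p = 0.111). In the authors' deposited table its adjusted p was 2.38e-09. Even the targeted gene was thus not called by limma here, so a member that limma did not call may still differ. The B cell and GC markers were high throughout, with 10 genes summing to 37410 to 40405 normalized counts in cKO and 38571 to 42540 in WT, and Cd38, which the sort excludes, at 22.8 to 158 in cKO and 36.9 to 106 in WT. cKO replicate 2 stood apart in markers of other cells: the 9 T cell markers summed to 1651 normalized counts there, against 521 to 776 in the other cKO libraries and 645 to 710.1 in WT. The same library had the highest sum of 7 naive or memory B markers (9380, against 3986 and 5666 in the other cKO libraries and 2365 to 5076 in WT) and of 8 macrophage markers (294, against 106 and 168 in the other cKO libraries and 96.5 to 131 in WT). It was also highest for 5 plasma cell markers (16063, against 7121 and 7433 in the other cKO libraries and 8328 to 12944 in WT). Neutrophil and monocyte markers summed to 34.7 to 156 in cKO and 31.6 to 115 in WT, erythroid markers to 3.25 to 98.0 in cKO and 5.32 to 17.9 in WT, and dendritic and stroma markers to 171 to 317 in cKO and 319 to 385 in WT. Each of the T cell markers was detected in cKO replicate 2, while Cd3d, Cd3g and Cd8a had 0 reads in cKO replicate 3.

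As a group, the replication genes had lower means in cKO than in WT by a small amount, and no single gene passed the test. A fitted log2 fold change below 0 was found for 39 of the 42 genes, against 50.2% of all 14678 genes tested, and the median log2 fold change was -0.25, against -0.002 over all genes tested. Among the 6637 genes with a mean at least that of the lowest member, 57.0% were below 0 and the median was -0.036. Without cKO replicate 2, the median of the 42 genes was -0.059 and 27 of them were below 0. limma, fitted on log2(normalized count + 1) with Benjamini-Hochberg adjustment over all genes tested, called 0 of the 42 (adjusted p of 0.915 to 0.997), where it called 0% of all genes. At an unadjusted p under 0.05, a single member was lower in cKO (2.17% of all genes) and 0 were higher (2.98% of all genes). For 0 of the 42 did all 3 cKO libraries lie below all 3 WT libraries, although 5.28% of all genes did so, and for 0 did they lie above them (6.28% of all genes). On recovered reads, edgeR called 0 members (0% of all genes) and had 0 lower at an unadjusted p under 0.05 (2.23% of all genes). DESeq2 called 0 members (0.197% of the 11658 genes given an adjusted p) and had 0 lower at that unadjusted p (1.81%, 211 genes set against the same 11658). Genes without an adjusted p may be among the 211, so the 1.81% is an upper limit. In the authors' deposited table the member with the smallest p was also Pola1 (p = 0.0542, adjusted p = 1.000).

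**Figure D1:**
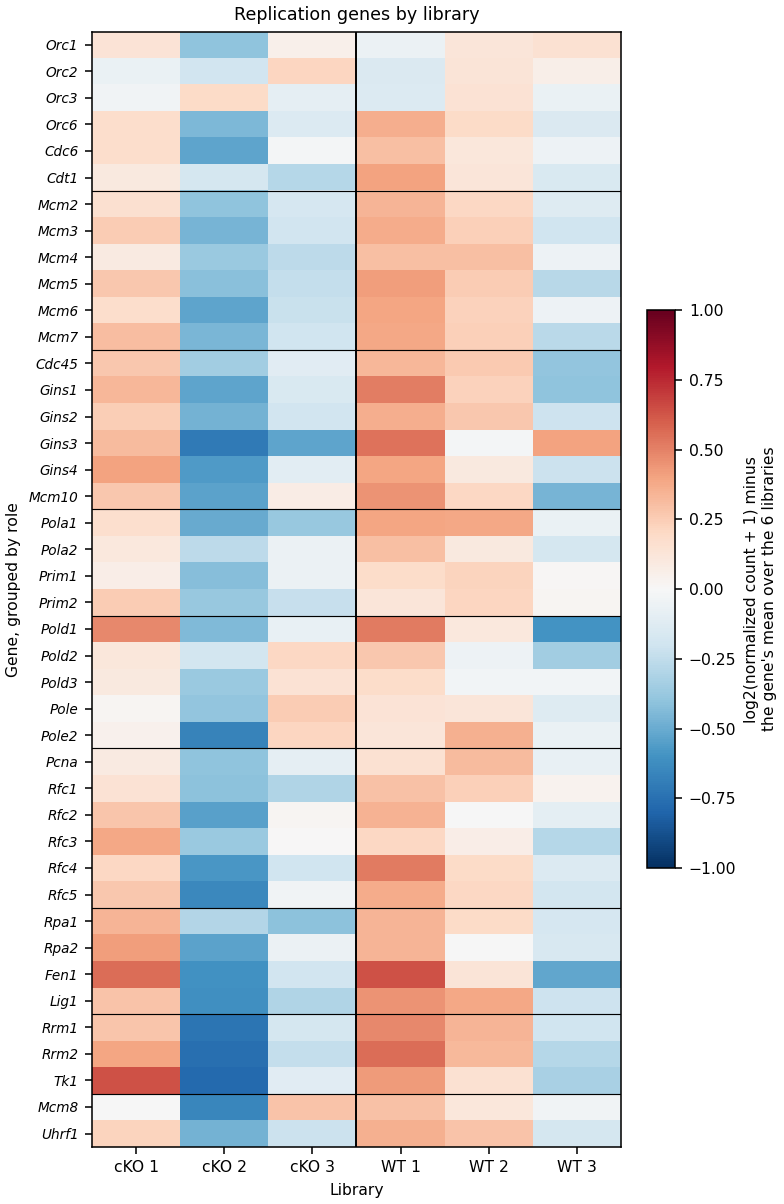
Each row is a replication gene, grouped by role, and each column a library, cKO left of WT; the colour is log2(normalized count + 1) minus the gene's mean over the 6 libraries. Rows are alike: 36 of 42 genes were lowest in cKO replicate 2 and 28 were highest in WT replicate 1.

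The 42 genes moved together between libraries, in an order that cut across the genotypes. The median of their log2 deviations from each gene's own mean was 0.23, -0.46 and -0.12 in cKO replicates 1 to 3 and 0.35, 0.20 and -0.16 in WT replicates 1 to 3. cKO replicate 1 thus lay with WT replicates 1 and 2 on the high side, and WT replicate 3 lay with cKO replicates 2 and 3 on the low side. For 32 of the 42 genes, cKO replicate 1 and WT replicates 1 and 2 were all above the other 3 libraries, as was the case for 12% of all genes. The library medians averaged -0.12 ± 0.35 in cKO and 0.13 ± 0.26 in WT (SD, n = 3 each), so the difference between groups was smaller than the spread within either. A single pattern over the 6 libraries held 84.8% of the variance of the 42 genes' log2 deviations, which share their libraries and are not independent. Of the members, 28 had a Pearson correlation above 0.9 with the median pattern over the 6 libraries (median 0.93), given as a description.

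The share of reads on mitochondrial genes was higher in each of the 3 libraries on the low side than in any on the high side, at 3.66%, 12.3% and 19.1% in cKO replicates 1 to 3 and 2.71%, 7.92% and 9.83% in WT replicates 1 to 3. The deepest library of either group was replicate 1, where the replication genes were highest. Within replicate 1, the median log2 difference of the 42 genes was -0.12 (33 of 42 lower in cKO), within replicate 2 it was -0.67 (41 of 42) and within replicate 3 it was 0.04 (16 of 42). Replicate numbers are shared labels and are not known to mark a batch or litter. Without cKO replicate 2, the library with the most T cell, macrophage and naive B transcripts, the median was -0.059 with 27 of 42 genes below 0 and 0 lower at an unadjusted p under 0.05 (2.65% of all genes). Without cKO replicate 1 it was -0.43 with 40 of 42 below 0 and 14 lower at that p (4.35% of all genes), and without WT replicate 3 it was -0.38 with 41 of 42 and 4 (1.48% of all genes). Without WT replicate 1 the median was -0.15 with 34 of 42 below 0. With a term for replicate 1 in the limma model, 0 members were called (0.0204% of all genes) and 7 were lower at an unadjusted p under 0.05 (4.52% of all genes). DESeq2 with the same term, an alternative added after the data were seen, called 0 members (0.634% of the 11667 genes given an adjusted p). It had 11 members lower at an unadjusted p under 0.05 (3.96%, 462 genes set against the same 11667). Genes without an adjusted p may be among the 462, so the 3.96% is an upper limit. The part that the other cells, the mitochondrial share or the depth have in these values was not tested.

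**Figure D2:**
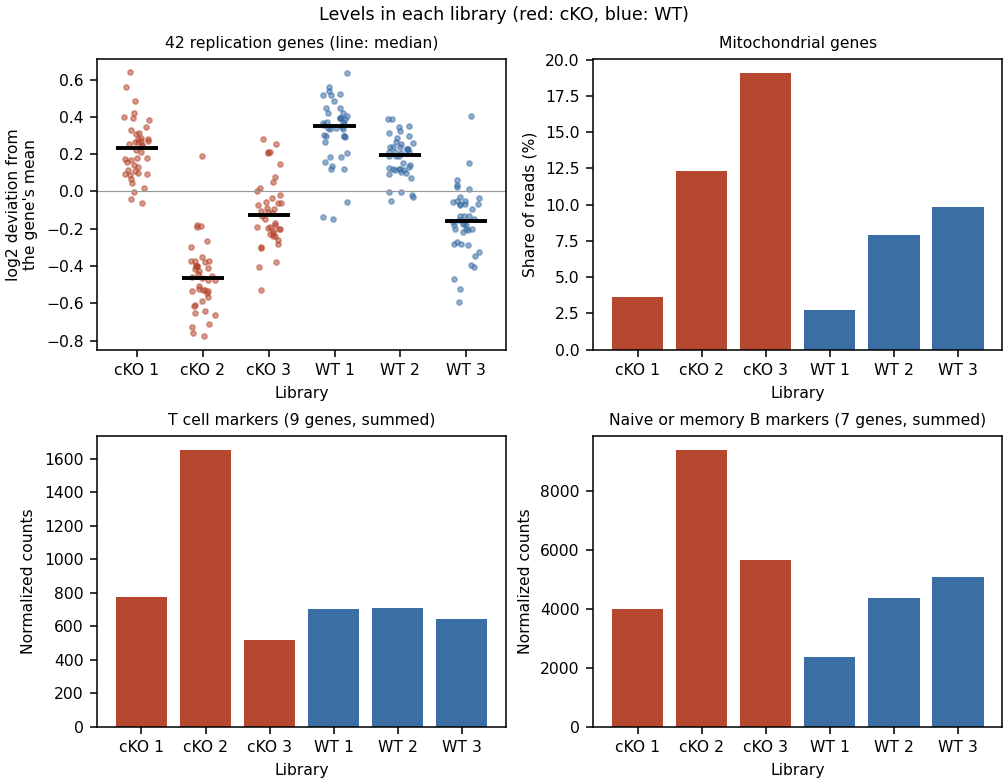
Upper left, log2 deviation of each of the 42 genes in each library (points) with the median (line); the other panels show per library the share of reads on mitochondrial genes and the summed normalized counts of T cell and of naive or memory B markers (bars), cKO in red left of WT in blue. The replication median is lowest in cKO replicate 2 (-0.46), where the T cell sum is highest (1651 normalized counts).

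**Figure D3:**
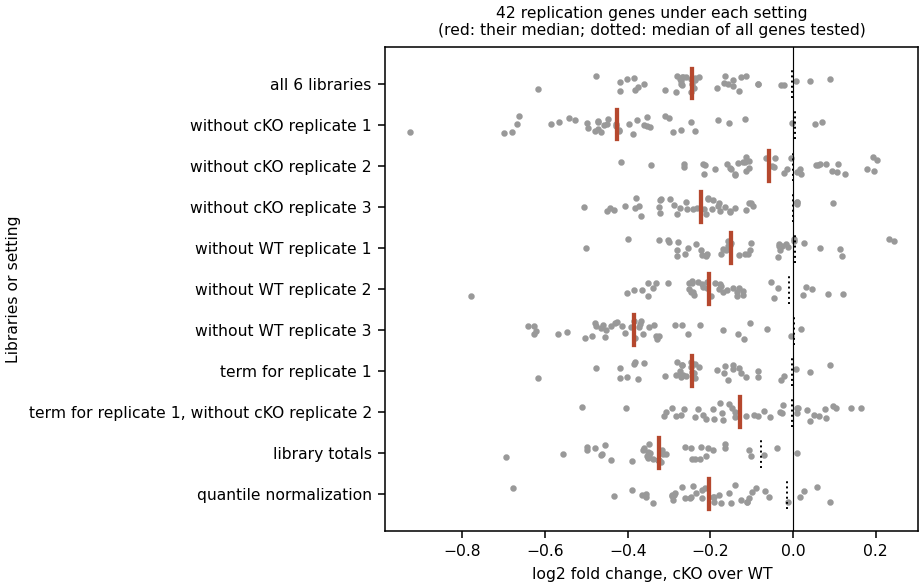
log2 fold change of cKO over WT for each of the 42 genes (grey points), their median (red) and the median of all genes tested (dotted), with all 6 libraries, with each library left out and under 4 other settings. The red line moves from -0.43 without cKO replicate 1 to -0.059 without cKO replicate 2.

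Of the 6 origin licensing genes, 5 had a log2 fold change below 0 (median -0.19). The median was -0.045 without cKO replicate 2, with 4 of 6 below 0, and -0.30 without cKO replicate 1. Orc6, the smallest subunit of the origin recognition complex, had 441, 285 and 355 normalized counts in cKO and 502, 445 and 352 in WT, and the groups overlapped. Its log2 fold change was -0.27 ± 0.20 (SE; limma adjusted p = 0.93). Cdc6, an ATPase that helps load the MCM ring, had 555, 339.7 and 484 in cKO and 606, 531 and 474 in WT, with a log2 fold change of -0.25 ± 0.20. Cdt1, the partner of CDC6 in loading, averaged 322 ± 44.8 in cKO and 384 ± 74.4 in WT, and unlike most members it was lowest in cKO replicate 3.

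Among the other origin recognition subunits in the list of 42, Orc3 and Orc2 did not follow the shared pattern. Orc1 followed it less closely than most members. Orc3 had 354, 416 and 341 normalized counts in cKO and 331, 401 and 348 in WT, so that it was highest in cKO replicate 2, where most members were lowest. Its correlation with the median pattern of the 42 genes was -0.47, the lowest of all. Its log2 range over the libraries was small, at 0.33, against a median of 0.84 over the 42. Orc2 (435, 399 and 527 in cKO, 410.5, 498 and 474 in WT) had a correlation of 0.046, and Orc1, the subunit with the regulated ATPase site, one of 0.58. The log2 fold changes were 0.04 for Orc3, -0.03 for Orc2 and -0.14 for Orc1, with 95% confidence intervals of -0.30 to 0.38, -0.38 to 0.32 and -0.60 to 0.31. Orc3 turned to -0.039 with library totals as the scaling, so its sign is not settled.

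All 6 genes of the MCM ring, the motor of the replicative helicase, had lower cKO means, with log2 fold changes of -0.38 to -0.24 (median -0.27). All 6 were below 0 with any single library left out, with a median of -0.13 without cKO replicate 2, -0.16 without WT replicate 1, -0.45 without WT replicate 3 and -0.46 without cKO replicate 1. Mcm6, the ring gene with the highest mean, had 4011, 2462 and 3045 normalized counts in cKO and 4673, 4155 and 3433 in WT, where cKO replicate 1 exceeded WT replicate 3. The fitted log2 value was -0.38, with a 95% confidence interval of -0.84 to 0.08. Mcm4 had 2291, 1659 and 1793 in cKO and 2642, 2642 and 2069 in WT, again overlapping only through cKO replicate 1 and WT replicate 3. Its log2 fold change was -0.36 ± 0.17 (SE; limma adjusted p = 0.915), and it was -0.21 within replicate 1 and -0.44 over replicates 2 and 3. Mcm2, Mcm3, Mcm5 and Mcm7 had log2 fold changes of -0.27, -0.27, -0.26 and -0.24.

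The ratio of the highest to the lowest ring subunit was similar in all libraries, while the order of the upper subunits varied. Per kilobase of annotated exon, Mcm3 averaged 749.7 ± 193 normalized counts in cKO and 898 ± 177 in WT, Mcm6 680.0 ± 168 in cKO and 876 ± 134 in WT, and Mcm2, the lowest, 292 ± 57.6 in cKO and 351 ± 56.6 in WT (SD, n = 3 each). The ratio of the highest to the lowest subunit per kilobase was 2.72, 2.43 and 2.499 in cKO and 2.61, 2.60 and 2.54 in WT, while the median level of the ring per kilobase ranged from 495 to 749 in cKO and from 597 to 869 in WT. The highest subunit was Mcm3 in every library except WT replicate 3, where it was Mcm6. Mcm5 lay above Mcm6 in cKO replicate 1 (903 and 860 per kilobase) and below it in WT replicate 3 (618 and 736). These per-kilobase levels divide by all annotated exons of a gene, so a subunit with rarely used exons appears lower than its transcripts are.

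**Figure D4:**
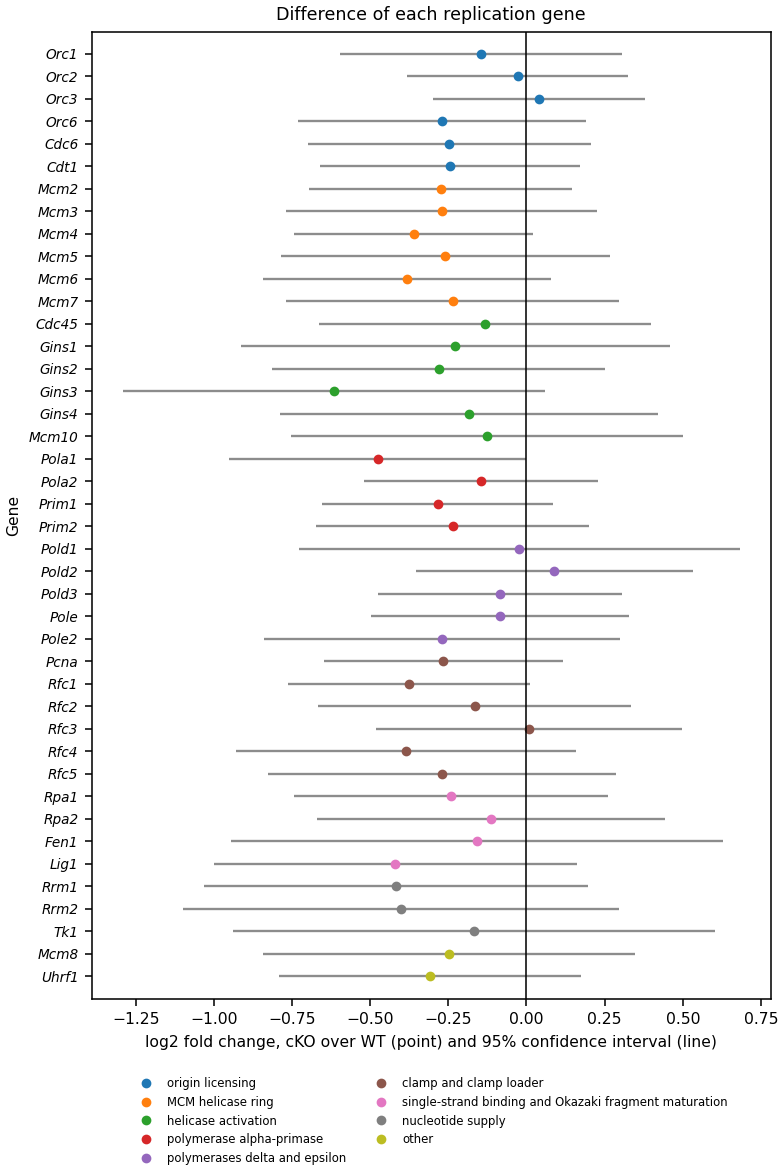
Fitted log2 fold change of cKO over WT for each of the 42 genes (points, coloured by role) with its 95% confidence interval (lines); negative values are lower in cKO. The points run from -0.62 (Gins3) to 0.09 (Pold2), and the interval of Pola1 alone lies wholly below 0.

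Among the genes that turn the ring into an active helicase, all 6 had log2 fold changes below 0 with all libraries (median -0.21), but 3 of 6 without cKO replicate 2 (median -0.0059) and 4 of 6 without WT replicate 1 (median -0.030). Without cKO replicate 2, Cdc45, Gins4 and Mcm10 were at 0.01, 0.06 and 0.11. The median was -0.42 without WT replicate 3 and -0.44 without cKO replicate 1. Gins3, a subunit of the GINS complex that bridges helicase and polymerase, had the most negative value of all 42: it measured 144, 70.2 and 79.7 normalized counts in cKO and 168, 114 and 153 in WT. cKO replicate 1 overlapped with WT, and the log2 fold change was -0.62 ± 0.30 (SE; limma adjusted p = 0.915). Gins3 rested on few reads, 37 of them in cKO replicate 2, the lowest count of any member. Unlike the other GINS genes, it was high in WT replicate 3, where Gins1, Gins2 and Gins4 had 88.8, 173 and 179 normalized counts, against means over the 3 WT libraries of 132, 224 and 226. Mcm10, an activator of the assembled helicase, had 691, 397 and 607 in cKO and 784, 665 and 415 in WT. Its groups overlapped widely, as did those of Cdc45, the helicase cofactor (451 ± 100.0 in cKO and 499 ± 127 in WT).

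The polymerase α-primase complex, which lays down the RNA-DNA primer of every fragment, held the member with the smallest p. Pola1, the catalytic subunit (chrX:93304767-93632155), had 843, 528 and 576 normalized counts in cKO and 983, 980.5 and 716 in WT. Only cKO replicate 1 lay above the lowest WT library. The log2 fold change was -0.48 ± 0.21 (SE), a fold of 0.719, and limma's adjustment over all genes gave it an adjusted p of 0.915. It was -0.22 within replicate 1 and -0.60 over replicates 2 and 3, and -0.34 (limma adjusted p = 0.890) without cKO replicate 2. Prim1, the primase catalytic subunit, had 495, 351 and 453 in cKO and 538, 554 and 478 in WT, with a log2 fold change of -0.28. The regulatory subunits Pola2 and Prim2 had values of -0.15 and -0.24. The median of the 4 genes was -0.26, and it was -0.12 without cKO replicate 2 and -0.40 without cKO replicate 1.

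Genes of polymerases δ and ε, which copy the lagging and leading strands, had a median log2 fold change of -0.084 with 4 of 5 below 0, a median that changed sign with the libraries used. It was 0.094 without cKO replicate 2 (1 of 5 below 0), -0.013 without WT replicate 1 and -0.046 without WT replicate 2 (3 of 5 each), and -0.15, -0.17 and -0.18 without cKO replicate 1, WT replicate 3 and cKO replicate 3. Pold1, the catalytic subunit of polymerase δ, had 1451, 763 and 985 normalized counts in cKO and 1491, 1116 and 687 in WT, a wide spread in both groups, with a log2 fold change of -0.02 (95% confidence interval -0.73 to 0.68) that turned to 0.016 with quantile normalization. Pold2, its accessory subunit, had the highest value of the 42 at 0.09 (interval -0.35 to 0.53), with 311, 252 and 331 in cKO and 346, 277 and 226 in WT. Pole, the catalytic subunit of polymerase ε, was highest in cKO replicate 3 (1150.0) and averaged 954 ± 209.8 in cKO and 998 ± 100.0 in WT. Pole2, its second subunit, had 175, 106 and 196 in cKO and 184, 216 and 161 in WT (log2 fold change -0.27 ± 0.25, SE). No test was made of the difference between role groups.

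Within the clamp and clamp loader, Rfc1, the large subunit of the loader, had 2477, 1687 and 1824 normalized counts in cKO and 2748, 2641 and 2296 in WT. The groups overlapped through cKO replicate 1, and the log2 fold change was -0.38 ± 0.17 (SE; limma adjusted p = 0.915). Pcna, the sliding clamp and the member with the highest level per kilobase, had 2730.4, 1947 and 2416 in cKO and 2862, 3192 and 2445 in WT (log2 fold change -0.27, 95% confidence interval -0.65 to 0.12). Per kilobase, Pcna averaged 985 ± 164 in cKO and 1180.4 ± 156 in WT. The small loader subunits ranged from -0.38 for Rfc4 to 0.01 for Rfc3, with Rfc5 at -0.27 and Rfc2 at -0.17. Rfc3 turned to -0.0070 with TMM factors and to -0.071 with library totals.

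Among the genes that bind single strands and mature Okazaki fragments, Lig1, the ligase that seals them, had 2058, 1103 and 1369 normalized counts in cKO and 2299.7, 2205 and 1465 in WT (log2 fold change -0.42, 95% confidence interval -0.999 to 0.16). Rpa1, the large subunit of the single-strand binding protein RPA, had 2711, 1740.5 and 1612 in cKO and 2708, 2435 and 1903 in WT, with nearly equal values in replicate 1 of both groups. Rpa2, its second subunit, and Fen1, the flap endonuclease, had log2 fold changes of -0.11 and -0.16. Fen1 spread widely, at 1111, 493 and 659.8 in cKO and 1169, 822 and 524 in WT.

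The 3 genes of nucleotide supply had a median log2 fold change of -0.40, which rested in large part on cKO replicate 2. Without that library it was -0.12, with Rrm1 at -0.16, Rrm2 at -0.12 and Tk1 at 0.18. The median was -0.22 without WT replicate 1, -0.62 without WT replicate 3 and -0.66 without cKO replicate 1. Rrm1, the large subunit of ribonucleotide reductase, had 2978, 1482 and 2167 normalized counts in cKO and 3429.5, 3114 and 2137 in WT. The groups overlapped, since both cKO replicates 1 and 3 exceeded WT replicate 3, and the log2 fold change was -0.42 ± 0.27 (SE; limma adjusted p = 0.928). Rrm2, the subunit made in S phase, had 1769, 795 and 1139.8 in cKO and 1985, 1682 and 1105 in WT, with a log2 fold change of -0.40 ± 0.31. Tk1, thymidine kinase, had 736, 275 and 437 in cKO and 633, 526 and 377 in WT. It was highest of all in cKO replicate 1 and lowest in cKO replicate 2, and its log2 fold change was -0.17 ± 0.34.

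Uhrf1, which carries DNA methylation over to the new strand, had 2758, 1706 and 2045 normalized counts in cKO and 3034, 2885 and 2093 in WT (log2 fold change -0.31, 95% confidence interval -0.79 to 0.17). Mcm8, a relative of the ring genes that works in recombination, averaged 108 ± 33.7 in cKO and 125 ± 14.5 in WT. Over all 42 members the lower bounds of the 95% confidence intervals ran from -1.29 to -0.30 and the upper bounds from -0.0012 to 0.68. The intervals of 3 members, Gins3, Rrm1 and Rrm2, reached a 2-fold drop.

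The promoters of these genes held the E2F and CCAAT motifs more often than those of the genes tested. The choice of members did not use these motifs. RefSeq promoter windows (GRCm38.p6, 250 bases before to 50 after a start) were matched by symbol for 35 of the 42 genes, and not for Mcm4, Gins1, Gins2, Gins4, Prim2, Pole and Rfc2. The 8-base E2F consensus, searched on both strands as TTTCCCGC, TTTGGCGC, TTTCGCGC or TTTGCCGC, occurred in 17 of these 35 genes (48.6%), against 4.79% of the 9695 tested genes that have a window, and in 2.26% of all 32851 windows. CCAAT, the NF-Y motif, searched on both strands, occurred in 23 of the 35 genes (65.7%), against 43.1% of the tested genes. The member windows were also richer in G and C than all windows (median 59.2% and 52.7%), and the motif shares were not adjusted for this. The stretches around the match are shown for 5 members because they cover a ring pair, a polymerase, a loader and the subunit that departed from the shared pattern. Each reads 5′ to 3′ on the gene's strand, with the E2F octamers in capitals on whichever strand they match.
Mcm6: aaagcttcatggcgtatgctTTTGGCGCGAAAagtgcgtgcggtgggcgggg
Mcm5: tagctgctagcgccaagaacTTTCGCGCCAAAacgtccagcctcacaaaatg
Pola1: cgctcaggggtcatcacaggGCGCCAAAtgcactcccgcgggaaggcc
Cdc6: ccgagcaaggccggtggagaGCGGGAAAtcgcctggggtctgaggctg
Orc3: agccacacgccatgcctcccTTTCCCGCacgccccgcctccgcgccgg

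The Mcm6 stretch lies at chr1:128359784-128359835 on the minus strand, 110 to 99 bases before the start counted over the capitals, and Mcm5 at chr8:75109336-75109387 on the plus strand, 153 to 142 bases before it. In both, an octamer on each strand overlaps the other. The Pola1 stretch lies at chrX:93632266-93632313 on the minus strand and Cdc6 at chr11:98907993-98908040 on the plus strand, both with the octamer 138 to 131 bases before the start. Orc3 lies at chr4:34614956-34615003 on the minus strand, with the octamer 41 to 34 bases before it. Orc3 holds an octamer although its values did not follow the shared pattern. The median log2 fold change was -0.25 both in the 17 genes with an octamer and in the 18 without it, given with no test. A match is a run of letters, and binding of a factor was not measured here.

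Further genes of the replication pathway that are not among the 42 also had mostly lower cKO means, and for some of them the groups did not overlap. From a list of 43 symbols for fork factors, histone loading and nucleotide enzymes, 41 were tested: 0 were called by limma (0% of all genes). At an unadjusted p under 0.05, 6 were lower (2.17% of all genes) and 0 higher (2.98% of all genes) in cKO, and 37 had a log2 fold change below 0 (50.2% of all genes), with a median of -0.24. For 6 of these 41 all cKO libraries lay below all WT libraries, beside the 5.28% of all genes. Without cKO replicate 2 the median was -0.087, with 26 of 41 below 0 and 1 lower at an unadjusted p under 0.05 (2.65% of all genes). Of 14 cell cycle regulators, among them E2F genes, 12 had a log2 fold change below 0 (50.2% of all genes), with a median of -0.22. For these, 10 of 14 were below 0 both without cKO replicate 2 (median -0.097) and without WT replicate 1 (median -0.11).

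Rrm2b, the ribonucleotide reductase subunit induced by p53, had 445, 364 and 286 normalized counts in cKO and 543, 648 and 531 in WT, with no overlap. Its log2 fold change was -0.67 ± 0.18 (SE; limma adjusted p = 0.915), and -0.68 without cKO replicate 2. Dtl, the substrate receptor that marks CDT1 for destruction on PCNA, had 568, 493 and 541 in cKO and 702, 822 and 693 in WT (log2 fold change -0.47 ± 0.13, SE; limma adjusted p = 0.915). It too was lower in all 3 cKO libraries, and was -0.41 without cKO replicate 2.

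Top1, the topoisomerase that relaxes DNA ahead of the fork, had 2737, 1892 and 2002 normalized counts in cKO and 3196, 3201 and 2886 in WT, again without overlap. The log2 fold change was -0.50 ± 0.16 (SE; limma adjusted p = 0.915), and -0.40 without cKO replicate 2. By DESeq2 with a term for replicate 1, an alternative added after the data were seen, Top1 passed (adjusted p = 0.0297). That test called 0.634% of the 11667 genes to which it gave an adjusted p. Atad5, which unloads PCNA, had 479, 338 and 396 in cKO and 537, 635 and 525 in WT, and Esco2, an acetyltransferase of cohesin, 380.1, 275 and 331 in cKO and 428, 578 and 399.8 in WT. Both were lower in every cKO library, with log2 fold changes of -0.49 and -0.50. Slbp, the histone mRNA binding protein of S phase, had 1089, 776 and 862 in cKO and 1284, 1274 and 1069.6 in WT, overlapping by a single library (log2 fold change -0.42). Adjusted p was 0.915 for each of these by limma, and the genes were chosen for their small p.

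**Figure D5:**
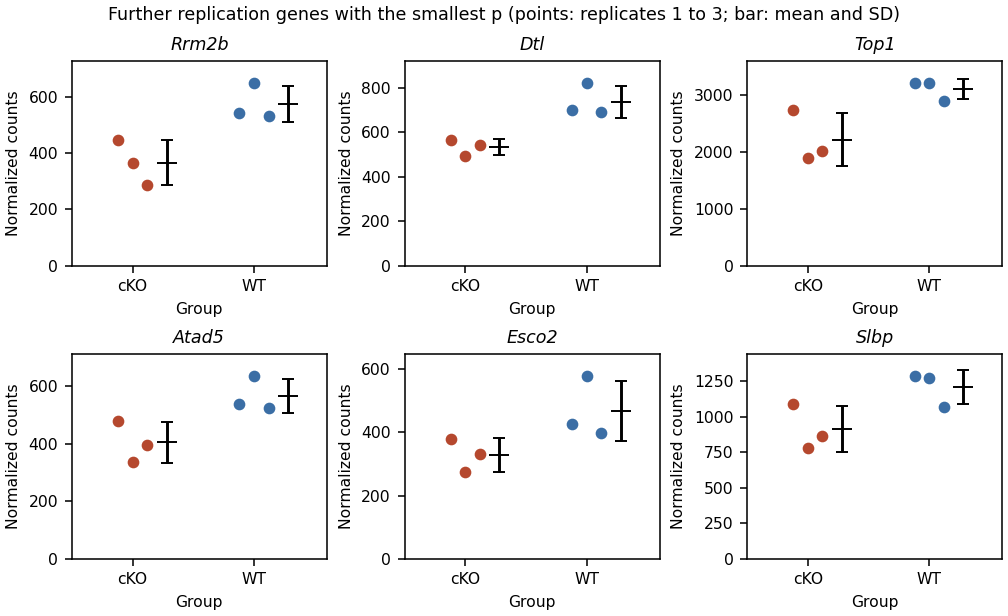
Normalized counts of the 6 further replication genes with the smallest p, cKO left of WT, 1 point per library with the mean and SD (n = 3) beside them. Rrm2b, Dtl, Top1, Atad5 and Esco2 show no overlap between groups, and Slbp overlaps by a single library.

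Some members share transcribed sequence with other genes. Pcna is 99.2% identical over 781 bases to the processed pseudogene Pcna-ps2, to which 284 reads over the 6 libraries were assigned, and Uhrf1 is 98.3% identical over 1590 bases to Gm5648, with 79 reads. Mcm7 matches the pseudogene Gm5487 at 97.7% over 2157 bases, Rfc5 matches Gm12870 at 96.2%, Rrm2 matches Gm48455 at 95.5% and Cdc6 matches Gm9430 at 95.2%. The sources used here do not state how reads that match several places were treated, so the levels of these 6 genes are less certain than those of the others. Exons of Gins2 overlap those of Gse1 on the opposite strand over 2758 bases. Those of Fen1 overlap the antisense gene Gm10143 over 1909 bases, and 1 read over the 6 libraries was assigned to Gm10143. Those of Orc2 overlap Nif3l1 over 1150 bases and those of Rfc2 overlap Lat2 over 952, also on opposite strands. Some other members have shorter overlaps. The strand setting of the counting is not given either, so how reads in these overlaps were assigned or dropped is not known.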

How the data were processed

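The authors deposited a table of 19680 genes with a normalized count (a signal that is never negative) per gene and library. It also holds their log2 fold change, test score (stat), p-value and adjusted p-value, per the file headers. DESeq2, HTSeq, TopHat2, HISAT, HISAT2 and SAMtools, and the build mm10, appear without version or role in the submitters' processing notes. Values came out as whole reads times a constant of each library (100% within 0.01 read), as division of read counts by a size factor would give. Read counts were therefore recovered from the deposited values with that constant. In these units that constant was 0.542 to 2.04 per read in cKO and 0.506 to 1.06 in WT.

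limma 3.58.1 (R 4.3.3) with a mean-variance trend was fitted on log2(value + 1) over 14678 genes with a mean of at least 1, genotype alone in the model, and genes were called at a Benjamini-Hochberg adjusted p under 0.05. This test fits normalized values; the fold of a low gene is understated on this scale. As alternatives, recovered reads were tested by DESeq2 1.42.0, edgeR 4.0.16 and limma-voom. Each test was tried on simulated data. Positions and exon lengths come from GENCODE M21 (GRCm38) and copies of at least 200 bases and 95% identity from BLAST 2.17.0. Values in every library are given for the member with the smallest p and that with the highest mean in each role group, and for 6 further genes by p; others were chosen after their values were seen. Members and lists were chosen with earlier results of these data known.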

Additional observations from a re-analysis of the deposited data

How the results depend on the processing

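Over 24 alternatives none of the 42 members was called, and their lowest adjusted p was 0.205 (Rfc1, DESeq2 with a term for replicate 1, added after the data were seen). Over all genes the count of calls, 0 by limma (438 higher and 318 lower at an unadjusted p under 0.05), was 1 with the replicate block, 3 with a term for replicate 1, 16 with that term and without cKO replicate 2, 11 by edgeR with no filter, 23 by DESeq2 and 74 by DESeq2 with the term. Members at an unadjusted p under 0.05 were 1 by limma. They became 7 with the replicate block or with the term for replicate 1 (632 and 664 of all 14678 genes lower). With the term and without cKO replicate 2 they were 3, beside 848 of 14577 genes lower. By DESeq2 with the term they were 11, beside 462 of the 19680 genes in the table. The count was 0 with a pseudocount of 0.5, a mean of at least 10, quantile normalization, library totals, edgeR, DESeq2 or limma-voom. With libraries left out this count ran from 0 to 14, the highest without cKO replicate 1. Members below 0 numbered 23 without replicate 2 of both groups and 23 to 41 over all libraries left out, and the median of the members stayed below 0, from -0.43 to -0.041. The cause of these shifts was not tested. Of the 42 members, 23 kept their sign in every alternative. Orc3 was -0.039 with library totals, Rfc3 -0.0070 with TMM factors and -0.071 with library totals, and Pold1 0.016 with quantile normalization. With the term for replicate 1 and without cKO replicate 2, the log2 fold change was 0.0328 for Orc1, 0.103 for Orc2, -0.0324 for Orc3, 0.0403 for Mcm10, 0.0798 for Pold1, 0.0627 for Pold3, 0.0965 for Pole, 0.00919 for Pole2, 0.0094 for Rfc2, 0.0511 for Rpa2, 0.0776 for Tk1 and 0.0127 for Mcm8. With libraries left out, the other 19 members crossed 0: Orc1 ran from -0.313 to 0.0443, Orc2 from -0.141 to 0.119, Orc3 from -0.0453 to 0.121, Cdc45 from -0.362 to 0.107, Gins1 from -0.486 to 0.0358, Gins4 from -0.428 to 0.0588, Mcm10 from -0.392 to 0.182, Pold1 from -0.325 to 0.240, Pold2 from -0.0632 to 0.244, Pold3 from -0.179 to 0.0795, Pole from -0.231 to 0.132, Pole2 from -0.444 to 0.104, Rfc2 from -0.347 to 0.0659, Rfc3 from -0.182 to 0.234, Rfc5 from -0.472 to 0.0232, Rpa2 from -0.353 to 0.125, Fen1 from -0.478 to 0.130, Tk1 from -0.528 to 0.215 and Mcm8 from -0.451 to 0.0168. Same-numbered libraries deviated from their group means with correlations of 0.49, 0.055 and 0.20 over 14678 genes, and cKO replicate 2 correlated best with WT replicate 3 (0.17), so the numbers were not taken as pairs. Top1 passed only by DESeq2 with the term (log2 fold change -0.50). Depth limits Gins3, Gins1 and Mcm8 most, with a single read worth about 2 normalized counts in cKO replicates 2 and 3.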
